A study of Mus musculus with 32 samples.

Results

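Chemokine ligands were followed in primary mouse melanomas of both sexes, with and without the floxed E-cadherin gene Cdh1 deleted. Members were all protein-coding genes whose symbol is Ccl or Cxcl followed by a number and at most 1 letter, together with Xcl1 and Cx3cl1. The tables held 37 such genes among 50600, of which 32 had enough counts to be tested, in a fit of 17717 genes. Tumours came from mice in which the melanocyte promoter Tyr drives mutant Nras (Tyr::NrasQ61K), with 1 null allele of Cdkn2a (Cdkn2a-/+) and floxed Cdh1 (Cdh1F/F), and all groups shared these alleles. In ΔEcad mice the methods add Tyr::CreA, a Cre recombinase under the same promoter, so that Cdh1 is removed in melanocytes and not in skin, vessels or leukocytes, whereas the labels of those tumours write Tyr::NRAS/° at that place. Ecad mice lack it. There were 8 tumours each from Ecad males, Ecad females, ΔEcad males and ΔEcad females, with no ages given and no treatment.

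Chemokines are small secreted proteins that direct the movement of leukocytes and other cells along a gradient by binding G protein-coupled receptors. Homeostatic chemokines such as Ccl21a, Cxcl12 and Cxcl14 are made steadily by stromal cells, lymphatic vessels or epithelium, whereas inflammatory ones such as Cxcl9, Cxcl10 and Cxcl2 are induced by interferon, tumour necrosis factor or interleukin 1. In skin, keratinocytes are known to make Ccl20 and Ccl27a, macrophages to make Ccl8 and Ccl12, and T cells to make Ccl5 and Xcl1. Bulk RNA pools all these cells, so fewer cells of a type and less RNA per cell cannot be told apart.

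Most members lie in gene clusters. Chromosome 11 holds 12 of the 37, most of them inflammatory CC ligands, chromosome 5 holds 10, most of them CXC ligands, and the other 15 lie on chromosomes 1, 4, 6, 7, 8 and 13 (GRCm38). Of the members, 27 matched a gene with a RefSeq promoter window in the assembly GRCm38.p6, and 3 windows are shown because the results below turn on these genes: that of Ccl20, the member called between female genotypes, and those of the neighbours Cxcl9 and Cxcl10, interferon-induced ligands that rose with T cell content. Each shows the 250 bases before the annotated start, with capitals for the interferon-stimulated response element core (GAAANNGAAA, both strands) and the NF-kB consensus, the site of the inflammatory factor NF-kB.
Ccl20 (chr1:83116516-83116765, plus strand): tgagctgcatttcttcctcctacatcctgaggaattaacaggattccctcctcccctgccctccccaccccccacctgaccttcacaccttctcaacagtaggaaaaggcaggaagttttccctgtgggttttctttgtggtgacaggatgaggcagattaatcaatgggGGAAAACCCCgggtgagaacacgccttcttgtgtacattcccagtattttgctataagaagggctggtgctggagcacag
Cxcl9 (chr5:92328080-92328329, minus strand): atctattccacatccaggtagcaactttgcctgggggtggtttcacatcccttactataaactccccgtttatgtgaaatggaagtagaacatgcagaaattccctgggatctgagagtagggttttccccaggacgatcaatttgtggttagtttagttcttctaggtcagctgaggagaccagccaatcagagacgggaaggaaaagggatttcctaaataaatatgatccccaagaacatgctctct
Cxcl10 (chr5:92348890-92349139, minus strand): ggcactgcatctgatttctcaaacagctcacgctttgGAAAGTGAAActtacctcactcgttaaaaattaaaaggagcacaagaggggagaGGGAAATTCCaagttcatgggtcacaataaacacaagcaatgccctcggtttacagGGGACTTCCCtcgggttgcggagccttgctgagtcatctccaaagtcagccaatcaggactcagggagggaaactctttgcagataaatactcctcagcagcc

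Ccl20 held an NF-kB consensus 80 bases before its start. Cxcl10 held the response element core at 213 bases and NF-kB consensus sites at 159 and 103 bases before its start. None of the searched motifs was in the Cxcl9 window, which says only that these letters are not in this window. Over 32851 promoter windows of this length, 2.98% held the response element core and 3.9% the NF-kB consensus, against 3 and 6 of the 27 members. The other motif searched, the interferon-gamma activated site (TTCNNNGAA), was in 7.02% of all windows and in those of Ccl17 and Cxcl14. The 6 members with an NF-kB consensus were Ccl20, Cxcl1, Cxcl2, Cxcl3, Cxcl10 and Ccl9. These are matches of letters and were not tested for binding.

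Libraries held 24036333 to 63923086 counts, and the spread between tumours was large, with a common dispersion of 0.624 and library factors of 0.696 to 1.24. Among the label checks, Cdh1 was at 0.79 to 65.22 TPM (a transcript level scaled for gene length and library size) in ΔEcad males and 25.0 to 281.85 TPM in Ecad males, whereas ΔEcad females (0.17 to 143.25 TPM, median 46.7) and Ecad females (2.16 to 151.15 TPM, median 30.6) overlapped over most of their ranges. The median of the deleted gene was thus higher in the females labelled as lacking it, and its level in whole tumours does not check those labels. In the library labelled ΔEcad male 2, Xist was at 6.41 TPM and Ddx3y had no counts, against its label. A further 2 libraries stood apart. ΔEcad male 7 had a melanocytic marker score of 0.78 log2 CPM, against a median of 10.4 in its group, and ΔEcad female 3 had a macrophage marker sum of 11.66 TPM and an endothelial one of 0.48 TPM, the lowest of all tumours. Results resting on these 3 are given with and without them, an alternative chosen after the data were seen.

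Levels of the members differed by orders of magnitude. Ccl8 (chromosome 11, 82115185 to 82116799), placed here with the CCR2 ligands and in mice known also to bind CCR8, had the highest mean over the 32 tumours at 439 TPM. It was followed by Ccl21a, the lymphatic vessel ligand of CCR7, at 169 TPM, by the macrophage product Ccl6 at 144 TPM and by the epithelial and stromal ligand Cxcl14 at 118 TPM. Next came Ccl3 and Cxcl12 at 47.2 and 47.1 TPM and Ccl2 and Cxcl13 at 39.8 and 39.7 TPM, and the ranges of neighbours in this order overlapped. The mean of Ccl3 was 26.1 TPM without Ecad female 4, its highest tumour at 701.67 TPM, and its median was 14.3 TPM. Summed over members, levels were 171.86, 1162.8 and 4852.61 TPM (lowest, median and highest) in Ecad males, 87.58, 444.8 and 2079.08 TPM among Ecad females, 345.7, 1319.1 and 4686.26 TPM in ΔEcad males, and 277.13, 1354.2 and 1811.01 TPM in ΔEcad females. The groups overlapped, and Ecad females had the lowest median.

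**Figure D1:**
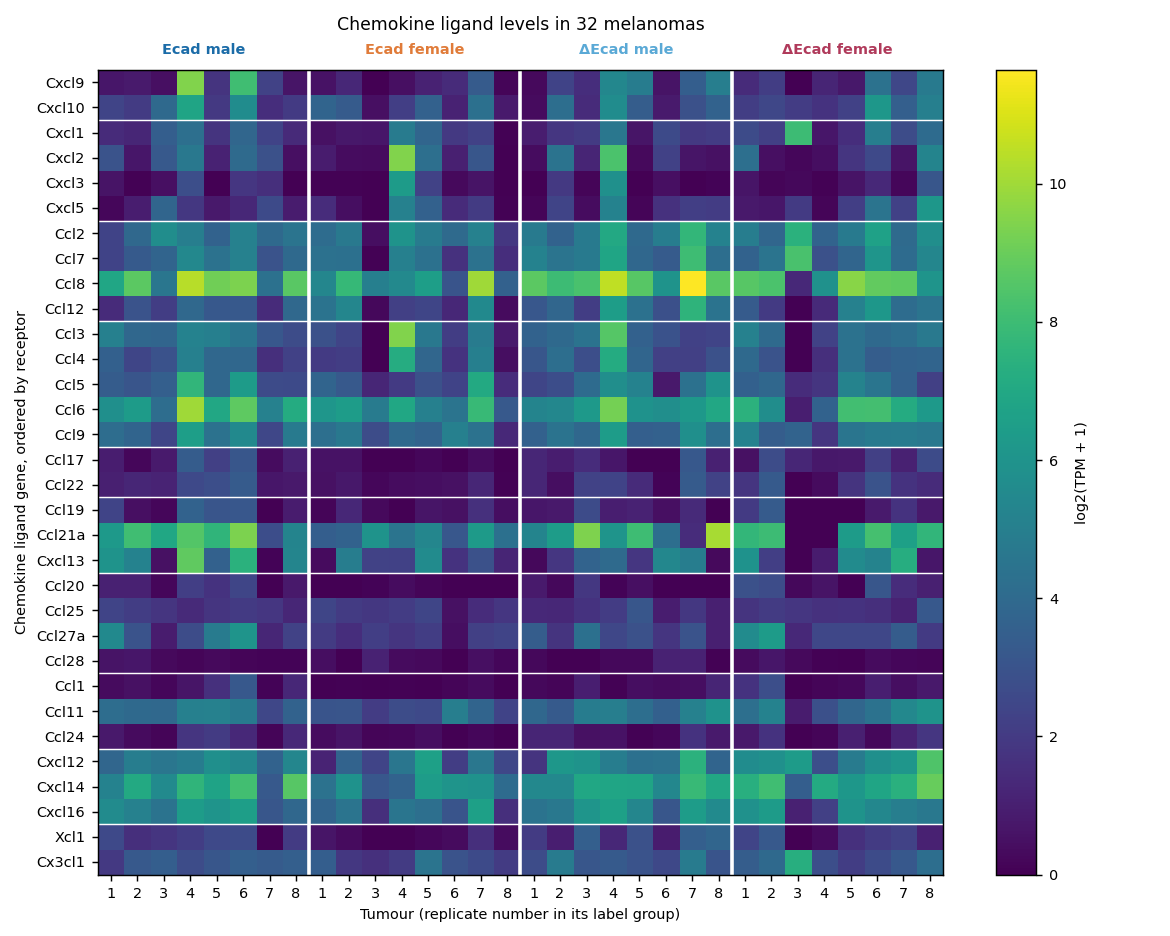
Heat map of the level of the 32 tested members (rows, ordered by receptor with white lines between receptor classes) in the 32 tumours (columns, by replicate number within each label group), with colour for log2(TPM + 1). Ccl8, with a mean of 439 TPM, is the brightest row, and ΔEcad female 3 is dark for 15 members that were at their lowest there.

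Members varied far more between tumours than most genes. The median standard deviation of log2 CPM over the 32 tumours was 2.01 for tested members and 0.46 for all genes tested. Ccl25, a ligand of CCR9 known from thymus and gut, was the steadiest at 0.68, and Cxcl13, the B cell follicle chemokine, the most variable at 3.25. Ccl25 overlaps Elavl1 on the other strand, and the counting was not stated to use strand, so its level is uncertain. Single tumours carried several members at once. Ecad male 4 was the highest tumour for 8 members (Ccl5, Ccl6, Ccl9, Ccl17, Ccl19, Cxcl9, Cxcl10 and Cxcl13), Ecad female 4 for 4 (Ccl3, Ccl4, Cxcl2 and Cxcl3), ΔEcad female 8 for 5 (Ccl11, Ccl25, Cxcl5, Cxcl12 and Cxcl14) and ΔEcad male 7 for 3 (Ccl2, Ccl8 and Ccl12). In ΔEcad female 3, 15 members were at their lowest level of all tumours, while Ccl7, Cx3cl1 and Cxcl1 were at their highest. Ecad female 3 held 12 members at their lowest.

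Female tumours of the 2 genotypes were compared first, since the study asked what loss of E-cadherin changes in females. A gene was called between groups at an adjusted p under 0.05 with a log2 change above 1 or below -1, and no fold limit was set for unadjusted p. One member was called, Ccl20, which was higher in ΔEcad females, in a comparison that called 1.16% of all tested genes higher. Ccl20 (chromosome 1, 83116766 to 83119167) encodes the ligand of CCR6, which draws in Th17 cells, B cells and immature dendritic cells. In Ecad females it was at 0, 0, 0.07, 0.32, 0.12, 0, 0 and 0 TPM in tumours 1 to 8, and in ΔEcad females at 6.3, 5.55, 0.2, 0.55, 0, 7.58, 1.83 and 1.04 TPM. All 8 Ecad females were low, with 8 counts between them, and 7 of 8 ΔEcad females had some, with 412 counts, but ΔEcad female 5 had none, so the groups overlapped. The log2 change was 5.47 (SE 1.32, edgeR quasi-likelihood test with Benjamini-Hochberg adjustment, adjusted p 0.0425).

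That call was close to the threshold. It was lost on leaving out any of 16 of the 32 tumours, with log2 changes of 5.05 to 6.28 and adjusted p of 0.0502 to 0.104. These were Ecad males 1, 2 and 4, Ecad females 1, 2, 3, 4, 6, 7 and 8, ΔEcad males 2 and 5 and ΔEcad females 1, 2, 6 and 7.

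Keratinocyte markers moved with Ccl20. Their summed level was 5.2, 8.06 and 1912.75 TPM (lowest, median and highest) in Ecad females, against 10.67, 6508.4 and 34322.56 TPM in ΔEcad females, all 10 markers had positive log2 changes with a median of 5.41, 9 of 10 at an unadjusted p under 0.05, and none of the 10 was at 0 in all tumours. With the keratinocyte score as a covariate, the log2 change of Ccl20 was 2.60 (SE 1.05, edgeR adjusted p 0.455). No member passed in that fit, where only 0.0508% of all genes were called in either direction. The absence of calls was thus not particular to members. In that fit 7 members had an unadjusted p under 0.05, a count with no share of all genes to set beside it. Among the 7 were Cx3cl1, Ccl7 and Cxcl1, which had their highest value of all tumours in ΔEcad female 3, a library that stood apart. With the T cell, macrophage and keratinocyte scores together the log2 change of Ccl20 was 2.68, and 0.00564% of all genes were called. The part of the keratinocyte markers in the call was not tested otherwise.

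Over all tested members, 25 were higher and 7 lower in ΔEcad females, with a median log2 change of 1.37 against -0.02 for all genes. At an unadjusted p under 0.05, 13 members were higher, where 11.2% of all genes were, and 1 was lower, Cxcl2, where 4.13% were. Without the 3 libraries that stood apart, 3.15% of all genes were called in either direction and 5 members were, namely Ccl20 at 5.64, Ccl1 at 4.48, Ccl17 at 3.64, Ccl22 at 2.87 and Cxcl14 at 2.20 on the log2 scale.

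Ligands of CCR4 and CCR8, receptors known from regulatory and type 2 helper T cells, were among those below the threshold in all 32 tumours. Ccl8, which in mice also binds CCR8, was not called either. It was above the Ecad median in 7 of 8 ΔEcad females, and above the highest Ecad female (1025.69 TPM) in 0 of 8. Ccl1, a ligand of CCR8, was at 0, 0.025 and 0.25 TPM (lowest, median and highest) in Ecad females, against 0, 0.53 and 6.03 TPM in ΔEcad females. Counts were 14 and 337 in all, and the log2 change of 4.29 (SE 1.16) had an edgeR adjusted p of 0.0521. Ccl17 was at 0, 0.085 and 0.5 TPM in the Ecad group and 0.46, 1.22 and 5.53 TPM in ΔEcad females, with 8 of 8 ΔEcad females above the Ecad median and 7 of 8 above the highest Ecad female. Its log2 change was 3.55 (SE 0.99, edgeR adjusted p 0.0551). Its partner Ccl22 was at 0.06, 0.38 and 1.39 TPM in the Ecad group and 0, 2.32 and 8.92 TPM in ΔEcad females, a log2 change of 2.68 (SE 0.86, edgeR adjusted p 0.0890). With the keratinocyte score as a covariate the changes were 2.48 for Ccl1, 3.08 for Ccl17 and 1.93 for Ccl22. Dendritic cell markers summed to 0.57, 4.79 and 19.46 TPM among Ecad females, against 2.84, 22.6 and 64.55 TPM in the ΔEcad group. All 6 had positive log2 changes, with a median of 1.23, 3 at an unadjusted p under 0.05 and 1 called, and none was at 0 in all tumours. Their part in the result was not tested.

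The receptor shared by Ccl17 and Ccl22, Ccr4, did pass, but close to the threshold and with levels near the floor in Ecad females. Unlike the ligands, it was not followed without single tumours, without the 3 libraries apart or with the keratinocyte score as a covariate. Ccr4 had a mean of 0.0438 TPM in the Ecad group and 1.41 TPM in ΔEcad females, a log2 change of 5.18 (SE 1.21, edgeR adjusted p 0.0394), with 6 of 8 ΔEcad females above the Ecad median. It was the only one of 13 tested signalling receptors to be called in females, and the changes of the other named receptors were -0.62 for Cxcr3, 0.16 for Ccr2, -0.22 for Ccr7 and -0.004 for Cxcr2. Ccr3, Ccr6, Ccr8, Ccr10 and Cxcr5 were not tested for lack of counts, so that for Ccl20 and Ccl1 the receptor could not be followed.

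Among epithelial ligands, Ccl27a, the keratinocyte ligand of CCR10, was at 0.37, 3.19 and 4.17 TPM in the Ecad group and 1.57, 4.63 and 83.8 TPM in ΔEcad females. In 6 of 8 ΔEcad females it was above the highest Ecad female, and the log2 change was 2.73 (SE 0.85, edgeR adjusted p 0.0781), or 0.53 with the keratinocyte score as covariate. Ccl27a and Ccl27b are near-identical copies, as are Ccl21a and Ccl21b, so reads may be split between them, and Ccl27a is uncertain. Ccl25 and Ccl28 had log2 changes of -0.02 and -0.74.

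Cxcl14 was at 7.85, 39.9 and 87.04 TPM in the Ecad group and 10.13, 149.98 and 498.03 TPM in ΔEcad females, with 7 of 8 ΔEcad females above the Ecad median (log2 change 2.02, SE 0.63, edgeR adjusted p 0.0796). Cxcl12, the stromal ligand of CXCR4, had a change of 1.91 (edgeR adjusted p 0.160), and 2.92 with an adjusted p of 0.0327 without Ecad female 5, the highest Ecad female at 96.42 TPM. Cx3cl1, the membrane-bound ligand of CX3CR1, had a change of 1.86. Without ΔEcad female 3, which alone reached 156.56 TPM, the mean of ΔEcad females fell from 27.7 to 9.35 TPM, and the change was 0.40 without the 3 libraries apart.

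The neutrophil attractants that signal through CXCR2 were dominated by single tumours. Cxcl2 was at 0, 0.93 and 700.73 TPM in Ecad females, the highest being tumour 4, and 0.14, 1.48 and 37.64 TPM in ΔEcad females. The medians were thus close and the log2 change of -3.56 (SE 1.66, unadjusted p 0.0397, edgeR adjusted p 0.289) went with Ecad female 4, without which the Ecad mean was 4.06 TPM instead of 91.1 TPM. Cxcl1 had its highest value in ΔEcad female 3 at 249.67 TPM, with a log2 change of 2.58, and of 0.61 without the 3 libraries apart.

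**Figure D2:**
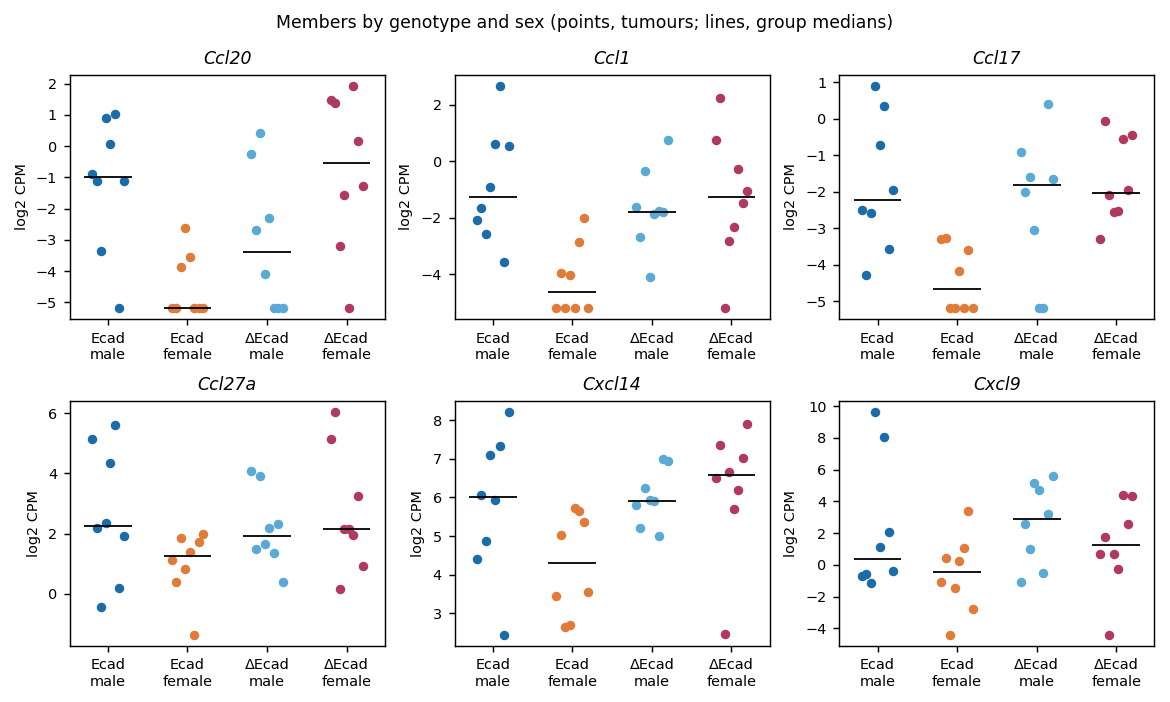
Log2 CPM (reads scaled to library size) of Ccl20, Ccl1, Ccl17, Ccl27a, Cxcl14 and Cxcl9 in the 4 label groups, with a point for each tumour and a line for the group median. Ecad females have the lowest median of Ccl20 (0 TPM), Ccl1 (0.025 TPM) and Ccl17 (0.085 TPM), and the ranges of the groups overlap in each panel.

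The same question was put to male tumours. No member was called by edgeR, nor was any gene (0.0%), and DESeq2 and limma voom called no member either. At an unadjusted p under 0.05, 3 members were higher in ΔEcad males, where 7.19% of genes were, and 2 were lower, where 3.05% were. With 32 members tested, 3 is close to the share of all genes, so this count does not set members apart. The 3 were ligands of CCR2, which calls monocytes out of the blood. They are neighbours in 1 cluster on chromosome 11 and cannot be taken as independent. Ccl12 had a log2 change of 2.48, Ccl7 of 1.82 and Ccl2 of 1.43. Ccl8, also placed here with them, had 0.91 (edgeR adjusted p of 0.443 to 0.741 over all of these). The receptor Ccr2 itself had a change of 2.07 (edgeR adjusted p 0.446). Ccl12 was at 1.69, 7.49 and 14.49 TPM in the Ecad group and 3.4, 16.5 and 188.28 TPM in ΔEcad males. Ccl2 was at 4.11, 18.1 and 51.19 TPM in the Ecad group and 11.53, 27.9 and 209.33 TPM in ΔEcad males. Ranges overlapped for both, with the highest value of both in ΔEcad male 7. Without the 3 libraries apart, Ccl12 had 1.74, Ccl7 1.18 and Ccl2 1.08, none at an unadjusted p under 0.05. Macrophage markers had a median log2 change of 0.69 over 10 genes, with none at an unadjusted p under 0.05.

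The 2 members lower in ΔEcad males were Cxcl9 and Cxcl13. Cxcl9, an interferon-gamma-induced ligand of CXCR3 that draws in activated T cells, was at 0.61, 0.78, 0.41, 686.54, 2.36, 273.58, 3.97 and 0.59 TPM in Ecad males 1 to 8, and at 0.21, 7.12 and 40.84 TPM (lowest, median and highest) in ΔEcad males. Only Ecad males 4 and 6 were high, and the Ecad median of 1.57 TPM was below the ΔEcad median, so the log2 change of -3.05 (SE 1.42, edgeR adjusted p 0.476) ran against the medians. Cxcl13 was at 0.07, 36.5 and 444.26 TPM in the Ecad group and 0.18, 7.28 and 41.61 TPM in ΔEcad males, with 7 of 8 ΔEcad males below the Ecad median (log2 change -2.87, SE 1.34, edgeR adjusted p 0.476). Over all members the median was 0.16, against 0.11 for all genes.

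**Figure D3:**
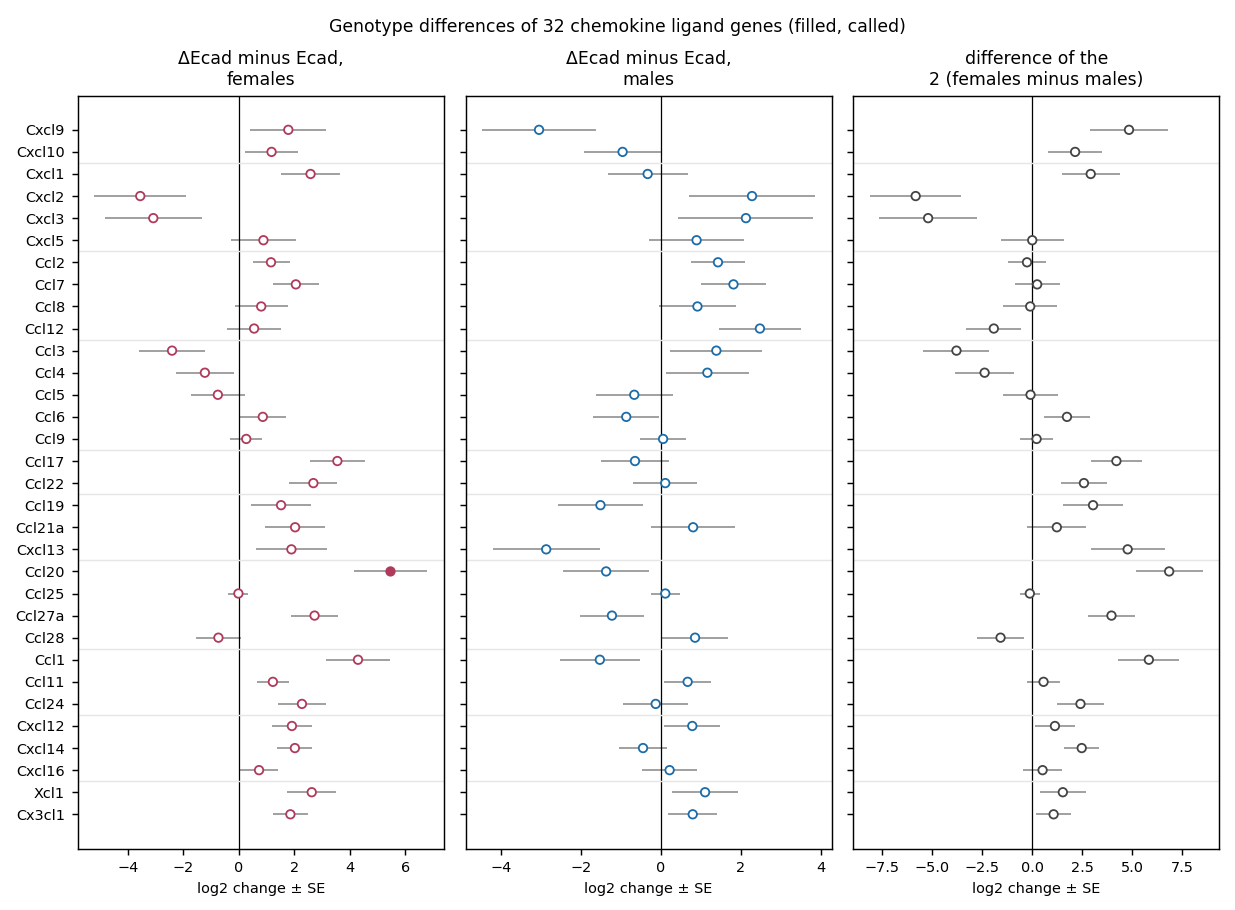
Log2 change between ΔEcad and Ecad tumours for each tested member, with its standard error, in females, in males and as the difference between the 2 (females minus males). In females 25 of 32 lie above 0 and Ccl20 is at 5.47. In males 19 lie above 0 and none is called, and the 4 members placed with the CCR2 ligands lie between 0.91 and 2.48.

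Sex was compared within each genotype. In Ecad tumours edgeR called no member, where 0.0508% of genes were called, while DESeq2 called 9, with 5.77% of all genes, and limma voom none. By edgeR, 13 were lower in females at an unadjusted p under 0.05, where 10.3% of genes were. None was higher, where 5.71% were. The median log2 change was -0.93 against 0.05 for all genes. Ecad females also entered the genotype comparison in females, so the 2 comparisons share those tumours. Ccl17 was -4.01, Ccl1 -4.63, Cxcl9 -6.05 and Ccl20 -4.67 on the log2 scale in females relative to males (edgeR adjusted p 0.0869, 0.0869, 0.0974 and 0.0985), beside 3.55, 4.29, 1.78 and 5.47 for ΔEcad relative to Ecad females. For Ccl17, Ccl1 and Ccl20, all 8 Ecad females were below the Ecad male median, at 0.995, 0.5 and 1.1 TPM. The ligands of lymphoid organs, Ccl19, Ccl21a and Cxcl13, also had negative changes of -2.58, -2.59 and -3.12. Keratinocyte markers were lower in Ecad females as well, with a median log2 change of -5.04 over 10 genes, and with that score as a covariate the changes were -3.45 for Ccl17, -2.89 for Ccl1, -5.46 for Cxcl9, -1.40 for Ccl20 and -0.19 for Ccl27a.

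In ΔEcad tumours no member was called between sexes by edgeR, DESeq2 or limma voom, where edgeR called 0.0395% of genes. At an unadjusted p under 0.05, only Cxcl1 was higher in females, where 3.32% of genes were, and none was lower, where 5.49% were. Its log2 change of 2.68 (SE 1.06, edgeR adjusted p 0.520) was 0.51 without the 3 libraries apart, which include ΔEcad female 3 at 249.67 TPM.

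The interaction of genotype and sex, which asks whether the genotype change differs between females and males, called no member and no gene by edgeR (0.0%), whereas DESeq2 called 6 members, with 6.91% of all genes, and limma voom no member. At an unadjusted p under 0.05, 9 members had a positive interaction, where 10.7% of genes did, and 3 a negative one, where 6.94% did. The smallest p were those of Ccl20 at 6.83 (SE 1.68), Ccl1 at 5.82 (SE 1.52), Ccl27a at 3.95 (SE 1.16) and Ccl17 at 4.20 (SE 1.29), with edgeR adjusted p of 0.0526, 0.0526, 0.0664 and 0.0772. Ccr4, the receptor of Ccl17, was at 7.51 (edgeR adjusted p 0.0509). The negative ones were Cxcl2 at -5.84, Cxcl3 at -5.22 and Ccl3 at -3.80, all with their highest value in Ecad female 4. The 10 keratinocyte markers had a positive interaction with a median of 7.47, all at an unadjusted p under 0.05, and with that score as a covariate the values were 3.47 for Ccl20, 2.79 for Ccl1, 0.64 for Ccl27a and 3.31 for Ccl17.

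Relations of the members to the cell content of the tumours were then measured across all 32. Scores were the mean log2 CPM of 10 marker genes for T cells, macrophages or keratinocytes, none of them a member, and a slope is the log2 change of a member per unit of score, with the 4 groups held as terms. T cell markers summed to 6.74, 15.2 and 60.37 TPM (lowest, median and highest) in Ecad males, 0.65, 4.77 and 57.38 TPM among Ecad females, 1.42, 22.7 and 83.1 TPM in ΔEcad males, and 1.74, 15.8 and 37.95 TPM in ΔEcad females. The groups overlapped in T cell content, so that members could be followed along the score within each of them.

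With the T cell score, 13 members rose, where 5.24% of all genes did, and none fell. A slope was called at an adjusted p under 0.05. The smallest p was that of Cxcl16 (chromosome 11, 70453983 to 70459984), the ligand of CXCR6 on tissue-resident and activated T cells, whose slope was 0.75 (SE 0.07, edgeR adjusted p 3.96e-08). Cxcl16 ranged from 1.09 to 98.14 TPM, and its correlation with the T cell score was 0.91 by Pearson and 0.91 by Spearman (permutation p 1e-05 each, the smallest that 100000 permutations can give, adjusted 0.000123 and 0.00016 over 320 relations of members and scores). It was 0.89 after leaving out the 2 tumours with the most extreme scores, and 0.88 to 0.97 within the 4 groups. Cxcr6 rose as well, with a slope of 0.97. Cxcl16 overlaps Zmynd15 on the other strand, and the counting was not stated to use strand, so it is uncertain.

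The CXCR3 ligands, both induced by interferon-gamma, followed T cells with a slope of 1.22 for Cxcl9 and 0.67 for Cxcl10 (edgeR adjusted p 0.000508 and 0.0114). Cxcl10 overlaps Art3 on the other strand and is uncertain. Cxcr3 itself had a slope of 0.14 (edgeR adjusted p 0.455), whereas the interferon-induced factor Irf1 rose with a slope of 0.50. Ifng was not tested for lack of counts.

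Among the inflammatory CC ligands, Ccl5, a product of activated T cells, had a slope of 0.89 (edgeR adjusted p 2.20e-07) and a Pearson r of 0.86 with the score, and Ccl6 and Ccl9 had 0.67 and 0.42. The CCR4 ligand Ccl22, made by dendritic cells and macrophages, had 0.85 (edgeR adjusted p 3.33e-05), and Ccr4 1.10. The remaining members to pass were Ccl8 at 0.81, Ccl1 and Ccl19 at 0.78, Ccl12 at 0.71, Xcl1 at 0.63 and Ccl11 at 0.46. Of these, Ccl19 lost its call without ΔEcad female 3 (0.71, adjusted p 0.0522) or ΔEcad female 4 (0.71, 0.0516), Ccl12 without Ecad female 7 (0.71, 0.0571) or ΔEcad female 4 (0.69, 0.0526), and Xcl1 without Ecad female 7 (0.60, 0.0505). The CXCR2 ligands, Ccl2, Ccl7 and Ccl25 were not called, with slopes of -0.13 to 0.72.

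**Figure D4:**
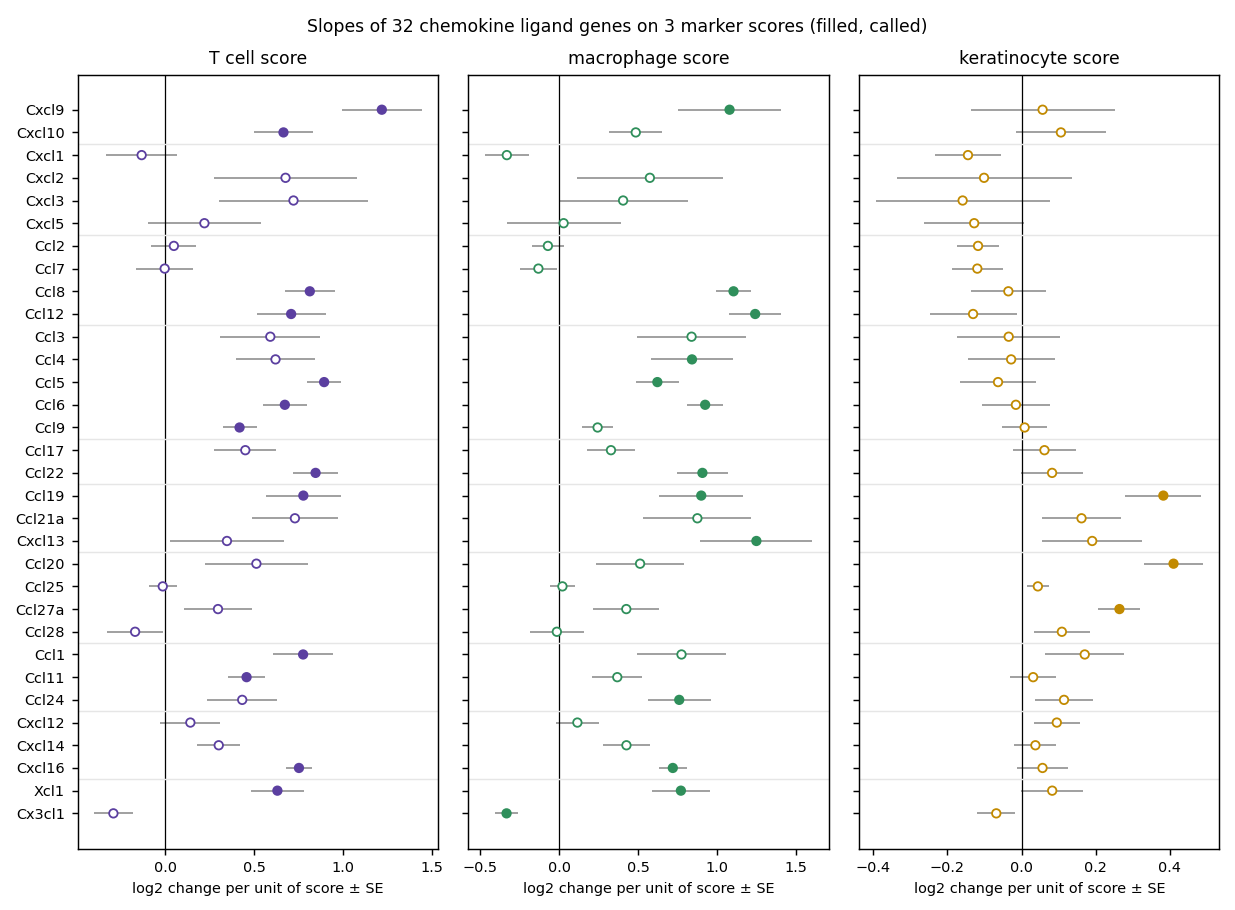
Slope of each tested member on the T cell, macrophage and keratinocyte scores, in log2 change per unit of score with its standard error, filled where called. The called members number 13 for the T cell score and 13 for the macrophage score, of which Cx3cl1 is negative. For the keratinocyte score they number 3, close to the share of all genes.

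With the macrophage score, 12 members rose, where 5.82% of all genes did, and 1 fell, where 2.62% did. Ccl8 had a slope of 1.10 (SE 0.11, edgeR adjusted p 5.36e-08) and correlated with the score (Pearson r 0.89, Spearman rho 0.88, permutation p 1e-05 each, adjusted 0.000123 and 0.00016). The value was 0.89 without the 2 farthest tumours and 0.83 to 0.97 within groups. Ccl12 had a slope of 1.24, Ccl6 of 0.92 and Cxcl16 of 0.72. The CCR2 ligands Ccl2 and Ccl7 did not follow over all tumours, with -0.07 and -0.13, although Ccl7 had 0.74 (edgeR adjusted p 0.0220) without ΔEcad female 3. In that tumour Ccl2 was also high, at 174.63 TPM, and its slope without it is not reported here. Ccr2 and Ccr1, receptors of monocytes and macrophages, rose with slopes of 1.07 and 0.81, among 8 of 13 tested receptors that did.

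Several macrophage slopes depended on single tumours. ΔEcad female 3, with the lowest score, carried the fall of Cx3cl1, which was -0.33 (edgeR adjusted p 0.00348) with it and -0.05 (0.876) without it. Ccl5 had 0.62 with it and 1.23 without it. Without this tumour Xcl1 had 0.73 (0.0578), Ccl19 0.90 (0.115), Cxcl9 1.12 (0.101), Cxcl13 1.20 (0.119), Ccl24 0.72 (0.105) and Ccl4 0.72 (0.194), and none of these was called. Cxcl9 was also lost without Ecad male 3, 4 or 7, Ecad female 7 or ΔEcad female 6 (0.93 to 1.05), Ccl19 without Ecad male 3 (0.82) or Ecad female 7 (0.90), Cxcl13 without Ecad male 4 (1.14), and Ccl4 without Ecad male 4 or 7, Ecad female 6, ΔEcad male 4 or 6, or ΔEcad female 4, 5 or 7 (0.73 to 0.84). Without the 3 libraries apart, 8 members were called, where 5.45% of all genes were in either direction.

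T cell and macrophage scores rose together over the tumours (Pearson r 0.75, Spearman rho 0.83, permutation p 1e-05 each, adjusted 0.000225 over 45 pairs of scores). A model with all 3 scores called 3 members for T cells, 5 for macrophages and 3 for keratinocytes, where 0.897%, 1.31% and 7.98% of all genes were called in either direction. The keratinocyte count was close to its share of all genes. Cxcl16 at 0.50, Ccl5 at 0.86 and Ccl22 at 0.57 kept a called slope on the T cell score. Ccl8 at 0.93, Ccl12 at 1.17, Ccl6 at 0.75, Cxcl16 at 0.35 and Cxcl13 at 1.73 had a called slope on the macrophage score. Ccl20 at 0.42, Ccl27a at 0.25 and Ccl19 at 0.33 had one on the keratinocyte score.

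The keratinocyte score fell into separate clusters of tumours, so no pooled correlation is given. With it, 3 of 32 tested members rose, where 7.25% of all genes did. This count is close to that share, so it does not set the members apart from other genes. The 3 were Ccl20 at 0.41 per unit (SE 0.08, edgeR adjusted p 0.000407), Ccl27a at 0.26 (SE 0.06, edgeR adjusted p 0.00141) and Ccl19, a ligand of CCR7, at 0.38 (SE 0.10, edgeR adjusted p 0.0121). Ccl19 and Ccl27a overlap genes on the other strand and are uncertain. Ccl20 and Ccl27a correlated with each other over the 32 tumours (Pearson r 0.71). The other epithelial ligands Ccl25 and Ccl28 had slopes of 0.04 and 0.11 and were not called. Of the atypical receptors, which bind chemokines without signalling through G proteins, Ackr1 and Ackr4 rose with slopes of 0.27 and 0.53, and no signalling receptor was called. Without ΔEcad male 8, the highest tumour for Ccl21a at 1122.61 TPM, that gene also passed, at 0.38 in place of 0.16.

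**Figure D5:**
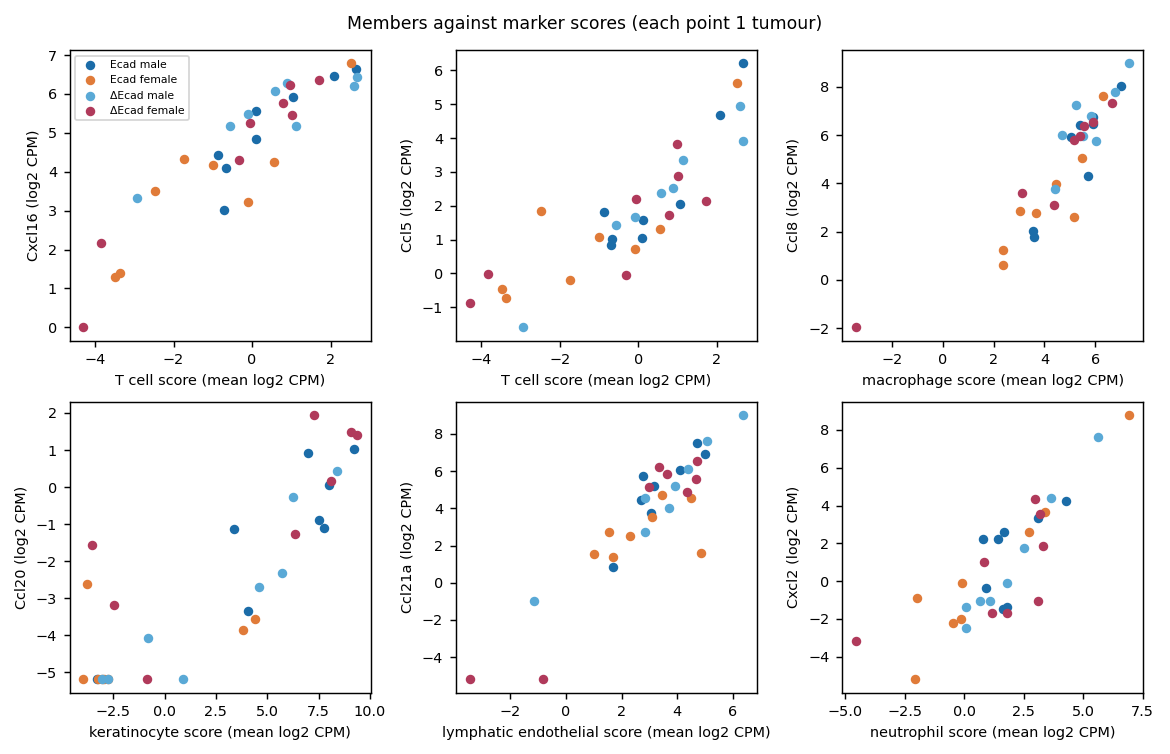
Log2 CPM of Cxcl16 and Ccl5 against the T cell score, and of Ccl8, Ccl20, Ccl21a and Cxcl2 against the macrophage, keratinocyte, lymphatic endothelial and neutrophil scores (mean log2 CPM of the markers), with a point for each tumour coloured by label group. Cxcl16 rises with the T cell score (r 0.91) and Ccl8 with the macrophage score (r 0.89), in tumours of all 4 groups.

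Other cell types were followed by the same correlation. Ccl21a tracked lymphatic endothelial markers (Pearson r 0.90, Spearman rho 0.80, 0.84 without the 2 farthest tumours, adjusted permutation p 0.000123 and 0.00016). The CXCR2 ligands Cxcl2 and Cxcl3 and the inflammatory CC ligands Ccl3 and Ccl4 tracked neutrophil markers, with r of 0.84, 0.74, 0.83 and 0.81 and rho of 0.79, 0.73, 0.75 and 0.72 (adjusted permutation p of 0.000123 to 0.000331), whereas Cxcl1 had an r of 0.39 with a rho of 0.66. Cxcl1 had an r of 0.85 after leaving out the 2 tumours with the most extreme scores. Cxcl12 tracked fibroblast markers (r 0.77, rho 0.67) and Xcl1, whose receptor Xcr1 marks cross-presenting dendritic cells, tracked dendritic cell markers (r 0.87, rho 0.89). Cxcl13, which organises B cell follicles, had an r of 0.06 with B cell markers.

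Within the family, 217 of 496 pairs of members correlated at an adjusted permutation p under 0.05 over the pairs, of which 216 were positive. Pairs of genes outside the family were not correlated, so this count does not set the family apart from other genes. The median r was 0.35 over all pairs and 0.59 over the 40 pairs that share a receptor class or setting. The tightest were Ccl3 with Ccl4 (0.96), Cxcl2 with Cxcl3 (0.92) and Ccl2 with Ccl7 (0.90), each a pair from 1 gene cluster. Cxcl9 and Cxcl10, whose windows are shown above, had an r of 0.77. Ccl2 and Ccl8, both placed here with the CCR2 ligands, had 0.23 over all 32 tumours. These include ΔEcad female 3, where Ccl2 was at 174.63 TPM, its highest ΔEcad female value, and Ccl8 at 1.51 TPM, its lowest of all. The r was not taken without that tumour alone.

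Members with too few counts to test were Ccl21b and Ccl26, at 0 in every tumour, Ccl27b with at most 1 count, Cxcl15 with at most 21 and Cxcl17, a mucosal chemokine, with at most 80. Cxcl17 reached 8.66 TPM in ΔEcad female 8 and 3.97 TPM in Ecad female 3, and at most 0.41 TPM in the other tumours.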

How the data were processed

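RNA from 32 melanoma primary tumours was used, 8 per genotype and sex. Per the methods and the labels, RNA with a RIN above 7 was made into TruSeq Stranded mRNA libraries, sequenced on a NovaSeq, checked with FastQC 0.11.5, and mapped and counted with STAR on mm10 (GRCm38.p5). The methods name a ComBat batch correction (sva), used where applicable, without saying for which data. The strand setting of the counting is not given in the sources used here. Tested members that overlap a gene on the other strand are therefore uncertain, namely Ccl2, Ccl6, Ccl19, Ccl21a, Ccl25, Ccl27a, Cxcl10, Cxcl16 and Xcl1. The authors deposited raw counts per gene and, in a second table, TPM values per gene. Both held 50600 genes, of which 50376 were named from GENCODE M21.

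Counts entered 1 edgeR 4.0.16 fit (R 4.3.3) of all 32 tumours, with filterByExpr (17717 genes left), TMM factors, 1 coefficient per label group, robust quasi-likelihood dispersions and Benjamini-Hochberg adjustment over the genes tested. Group differences and their interaction were called at an adjusted p under 0.05 with an absolute log2 change over 1, and slopes on a marker score at an adjusted p under 0.05. Log2 CPM used a prior count of 1. TPM values served as levels and in limma 3.58.1 alternatives, and DESeq2 1.42.0 was another. Correlations had two-sided permutation p from 100000 permutations (scipy 1.17.1).

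On simulated counts for the comparison of females, run on 17717 genes, 89% of 100 genes given a log2 change of 4 were called, as were 54% of 100 given a change of 2 and 4 of 17517 unchanged genes. For the T cell slope, 88% of 200 genes with a slope of 0.8 were called. For genes with as few counts as Ccl20, Ccl1 and Ccl17, the share called in the comparison of females was not tested separately. Named members were those called, the 4 with the smallest p in each contrast, the 8 highest in mean TPM, and for each score the 4 rising and 2 falling with the smallest p. Other members are named as examples, chosen after their values were seen. Members and gene lists were chosen with earlier results of these data known. Labels do not say whether tumours of a group came from separate mice, so p-values measure the spread between tumours. Cxcl11 is annotated as a polymorphic pseudogene in GENCODE M21 and is no member. Results for some genes of the pathway lists are not reported here.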

Additional observations from a re-analysis of the deposited data

Results flagged for a closer look

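In each group of 8 tumours, the gap between the highest or lowest tumour and its nearest neighbour was set against the range of the group, with Dixon's critical value of 0.526. Of 104 groups of values examined, 10 held such a tumour. Chance gives about 1 in 20 for independent values. These members share tumours, often rise together and were partly chosen by their values, so the 10 cannot be set against that rate. ΔEcad female 3 accounted for 5 of the 10. It was low in Ccl3 at -5.193 log2 CPM, in Ccl8 at -1.972 and in Cxcl14 at 2.451, it was high in Cx3cl1 at 7.501, and its macrophage score was low at -3.416.

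The other 5 were spread over as many tumours. ΔEcad male 4 was high in Ccl3 at 6.388 log2 CPM. Ecad female 7 was high in Ccl5 at 5.623. Ecad male 1 was low in Cx3cl1 at 1.891, ΔEcad male 6 was low in Cxcl16 at 3.327, and Ecad male 7 had a low keratinocyte score of -3.29.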

How the results depend on the processing

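In females, where edgeR called 1 member, DESeq2 called 8 (Ccl20, Ccl1, Ccl17, Ccl27a, Ccl22, Cxcl14, Xcl1 and Cxcl12), in a test that called 7.23% of all genes. RLE factors, library totals alone and no count filter each gave 2, the 3 libraries left out gave 5 (3.15% of all genes), and an adjusted p under 0.1 gave 6. No member was called by limma voom or by limma on log2(TPM + 1) or log2(TPM + 0.1), in a fit of only the tumours compared, with the keratinocyte score or all 3 scores as covariates, or with the replicate block, that is 0, where 7 to 12 members had an unadjusted p under 0.05. Of all genes, 0.0508% were called with the keratinocyte score as covariate, and 0.00564% with all 3 scores or with the replicate block. Few genes of any kind passed there, so these counts of 0 are not particular to members. Counts in this paragraph with no share beside them cannot be set against all genes. Leaving out single tumours gave 0 to 5. Between sexes in Ecad tumours, DESeq2 called 9 (5.77% of all genes) and an adjusted p under 0.1 gave 4, in place of 0. For the interaction, in place of 0, DESeq2 called 6 (6.91% of all genes), RLE factors 2, library totals 3, no filter 2, an adjusted p under 0.1 gave 4, and leaving out single tumours 0 to 3. In males and between sexes in ΔEcad tumours, all alternatives called 0.

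The T cell slope was called for 13 members, for 20 by DESeq2 (15.5% of all genes), for 3 with all 3 scores in 1 model and for 11 to 15 without single tumours. The macrophage slope was called for 13, for 20 by DESeq2 (20.6% of all genes), 5 in the model of 3 scores, 8 without the 3 libraries apart, 8 at an adjusted p under 0.01 and 10 to 16 without single tumours. The keratinocyte slope was called for 3, for 5 without a count filter or without group terms, and for 3 to 4 without single tumours. Of the correlations with T cell and macrophage scores, 40 passed over all tumours, 20 of 32 members for each score, and 36 on log2(TPM + 1). Genes outside the family were not correlated with the scores, so no share of all genes stands beside these counts. Within the groups of 8 tumours 9 passed in ΔEcad females, 1 each in the male groups, and 0 in Ecad females. The 9 include ΔEcad female 3, lowest of all tumours in both scores at -4.30 and -3.42, and were not taken without it.

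Of 38 named changes and slopes, 18 kept direction and side of the threshold in all alternatives, 5 changed direction, 3 lost a call and 14 gained one in some. Cxcl9 in males was 0.0709 in limma on log2(TPM + 0.1). Cxcl2 between sexes in ΔEcad tumours (-2.52) was 0.24 in voom, 0.64 with the replicate block and -3.41 to 0.35 without single tumours. The T cell slope of Cx3cl1 (-0.29) was 0.0948 in the model of 3 scores and 0.0375 without the 3 libraries. The macrophage slope of Cxcl1 (-0.33) was 0.32 without these and -0.41 to 0.28 without single tumours, and the keratinocyte slope of Ccl7 (-0.12) was 0.0446. The cause was not tested.

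Tumour numbers are shared across groups. The 48 same-numbered pairs had a mean correlation of -0.000233 (-0.547 to 0.423), and 1 of 32 tumours matched its own number best. No pairing by number was seen on average, but these values cannot exclude a shared batch in some pairs. With the replicate block Ccl20 was at 5.94 in females and not called, where 0.00564% of all genes were called. On the T cell, macrophage and keratinocyte scores, 10, 13 and 3 slopes were called, where 5.17%, 7.15% and 8.27% of all genes were.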

Other observations

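Cxcl11, the remaining CXCR3 ligand, is not counted among the members, since its annotation is not protein-coding. It was at 0 to 53.47 TPM with a median of 0.31 TPM, and its highest value was in ΔEcad male 2.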
